A study of Mus musculus with 8 samples.

Results

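Islet peptide hormones other than insulin were described by 10 genes, found by their symbols among the 23284 gene rows of the deposited counts: Gcg, Sst, Ppy, Pyy, Ghrl, Iapp, Gast, Npy, Cck and Ucn3. Each had 1 row, and all 10 passed the filter on low counts. RNA was sequenced from mouse pancreatic cells at embryonic day 17, in 4 libraries per genotype. All 8 libraries carried Neurog3Cre+ and RosaTomato+ on a background labelled C56BL/J. Neurog3-Cre acts in the precursors of every islet cell type, and its Tomato-labelled descendants were sorted, so each library is a pool of several endocrine cell types. In the KO libraries (replicates 8, 9, 17 and 24) Neurod1 was floxed/floxed, and in the Het libraries (replicates 6, 7, 13 and 19) it was floxed/wt. A Het cell therefore had also lost an allele of Neurod1, and no library with both alleles intact was part of the comparison. The labels do not say that libraries came from separate animals, so p-values measure the spread between these libraries only.

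Islet cells are named for the peptide they release. Alpha cells make glucagon (Gcg), which raises blood glucose, and beta cells release amylin (Iapp) together with insulin. Delta cells make somatostatin (Sst), which restrains the other islet cells, PP cells make pancreatic polypeptide (Ppy), and epsilon cells, frequent only before birth, make ghrelin (Ghrl). Peptide YY (Pyy), neuropeptide Y (Npy) and Ppy belong to 1 gene family, and Pyy and Npy are widely made in the fetal islet. Gastrin (Gast) and cholecystokinin (Cck) are related gut hormones, with gastrin made transiently in the fetal pancreas, and urocortin 3 (Ucn3) is a peptide of maturing mouse beta cells. Neurod1 encodes a basic helix-loop-helix factor of endocrine cells that binds short DNA motifs called E-boxes.

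The stretches before 5 of these genes are shown because the E-box is the motif Neurod1 binds and because this set holds the 3 genes that fell (Gcg, Npy and Gast), Iapp, and the Npy relative Pyy. Each is the 250 bases before the most upstream RefSeq start of the gene, on the build GRCm38.p6, 5′ to 3′ on the gene's own strand, with every E-box (CANNTG, the same on both strands) in capitals. The counts themselves were made on mm9, and these coordinates are not on that build.
Gcg (chr2:62483654-62483903, minus strand): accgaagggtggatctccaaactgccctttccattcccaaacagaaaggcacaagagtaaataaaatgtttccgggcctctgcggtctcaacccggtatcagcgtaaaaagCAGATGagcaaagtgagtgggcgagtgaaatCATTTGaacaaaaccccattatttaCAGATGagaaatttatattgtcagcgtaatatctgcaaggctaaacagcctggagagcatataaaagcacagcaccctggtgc
Npy (chr6:49822460-49822709, plus strand): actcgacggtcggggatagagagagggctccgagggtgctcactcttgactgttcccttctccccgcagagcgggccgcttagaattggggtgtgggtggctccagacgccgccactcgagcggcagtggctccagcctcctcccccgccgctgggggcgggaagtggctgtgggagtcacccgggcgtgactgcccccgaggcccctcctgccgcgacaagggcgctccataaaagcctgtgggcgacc
Gast (chr11:100334157-100334406, plus strand): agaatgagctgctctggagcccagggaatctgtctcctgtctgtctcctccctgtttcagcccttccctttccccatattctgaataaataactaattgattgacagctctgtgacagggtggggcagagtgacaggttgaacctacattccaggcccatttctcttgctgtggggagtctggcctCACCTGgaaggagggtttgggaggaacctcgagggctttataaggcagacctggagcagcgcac
Iapp (chr6:142298175-142298424, plus strand): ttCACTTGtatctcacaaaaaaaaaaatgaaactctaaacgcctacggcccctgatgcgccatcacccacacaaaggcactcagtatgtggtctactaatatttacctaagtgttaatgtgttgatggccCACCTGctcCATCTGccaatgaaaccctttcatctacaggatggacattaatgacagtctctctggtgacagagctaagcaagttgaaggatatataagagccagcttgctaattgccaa
Pyy (chr11:102107833-102108082, minus strand): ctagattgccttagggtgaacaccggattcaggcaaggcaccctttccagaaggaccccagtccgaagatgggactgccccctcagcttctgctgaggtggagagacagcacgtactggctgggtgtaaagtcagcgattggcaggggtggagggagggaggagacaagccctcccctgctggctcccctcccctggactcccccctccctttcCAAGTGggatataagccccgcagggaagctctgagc
Gcg had 3 E-boxes, of which 2 read CAGATG, at 139 and 83 bases before the start. Iapp had 3, with a CAGATG on the other strand 111 bases before the start. Gast had 1 (CACCTG), Pyy had 1 (CAAGTG), and Npy had none in this window. Over all 10 genes, 8 windows held a CANNTG, as did 66.1% of the 27025 RefSeq promoters taken the same way. CAGATG or its reverse complement CATCTG was in the windows of 4 hormone genes (Gcg, Iapp, Cck and Ucn3) and in 14.5% of all promoters. Such a match is a description of the letters, and binding was not measured in these libraries.

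The libraries held from 10.35 M to 16.08 M counts each. Levels are given as CPM, counts per 1 M counts of the library after TMM scaling. Neurod1 itself stood at 2.55, 12.9, 22.2 and 21.5 CPM in KO replicates 8, 9, 17 and 24, and at 133 to 210.5 CPM in Het. KO replicate 8 stood apart. All 11 mesenchyme markers were highest there, with a sum of 10620.5 CPM against 536 to 1466 CPM in the other 7 libraries. All 6 pan-endocrine markers, such as Chga, Isl1 and Syp, were lowest there, as were 20.9% of all genes tested. The sum of these 6 was 2574 CPM there, against 3892 to 7060 CPM elsewhere. By genotype this sum was 2574 to 5703 CPM in KO and 5611 to 7060 CPM in Het, with a median log2 fold change of −0.56. Of these 6 genes edgeR called 1 lower in KO (Syp, the synaptic vesicle protein gene, −0.87, adjusted p = 0.0405), as it did 0.680% of all genes tested. Leukocyte markers, 7 of 7 with reads, summed to 440 CPM there and to between 19.9 and 239.5 CPM elsewhere. Markers of digestive acinar cells, 11 of 11 with rows, summed to between 10439 and 32630 CPM in Het and between 13656 and 46672 CPM in KO. Erythroid markers stayed at 6.41 to 15.3 CPM, with the haemoglobin genes Hba-a1, Hba-a2, Hbb-b1 and Hbb-b2 at 0 in every library. The fold change of each hormone gene is also given without KO replicate 8, and the part of the other markers in the results was not tested. Reads of 4 Y-linked genes were present in KO replicates 8, 9 and 24 and Het replicate 7 (414 to 497 CPM summed) and near 0 in the other 4 libraries (0.309 to 0.442 CPM).

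Of the 10 hormone genes, 3 fell in KO and 0 rose by edgeR's quasi-likelihood test with Benjamini-Hochberg adjustment over 14116 genes. Among all genes tested 0.680% were called lower and 0.340% higher. The hormone genes were chosen with earlier results of these data known, so these shares are given for scale and are not a test of the set. Before adjustment 4 had a p under 0.05, Iapp being the added gene, as did 12.2% of all genes tested. DESeq2 called these 4 lower, where it called 2.08% of all genes lower and 3.68% in either direction. With a mesenchyme covariate 3 were called (2.33% of all genes lower), and with a Y-linked covariate 1, Npy (0.156%). The log2 fold change was negative for 8 of 10, and for 46.6% of all genes tested. For 4 hormone genes (Gcg, Iapp, Gast and Npy) each KO library lay under the lowest Het library, where 4.48% of all genes tested were separated in this direction. The median log2 fold change of the 10 was −0.33, against 0.03 over all genes tested, and −0.08 without KO replicate 8, against −0.0048. For 8 of the 10 the lowest value was in KO replicate 8, as it was for 20.9% of all genes tested. Without it the same 3 genes (Gast, Gcg and Npy) were called lower, where 1.31% of genes were. The summed pan-endocrine markers overlapped between genotypes, at 2574 to 5703 CPM in KO and 5611 to 7060 CPM in Het, with KO replicate 8 lowest. The part of these markers in the falls was not tested. In these pools, fewer cells of a type and less transcript per cell cannot be told apart.

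**Figure D1:**
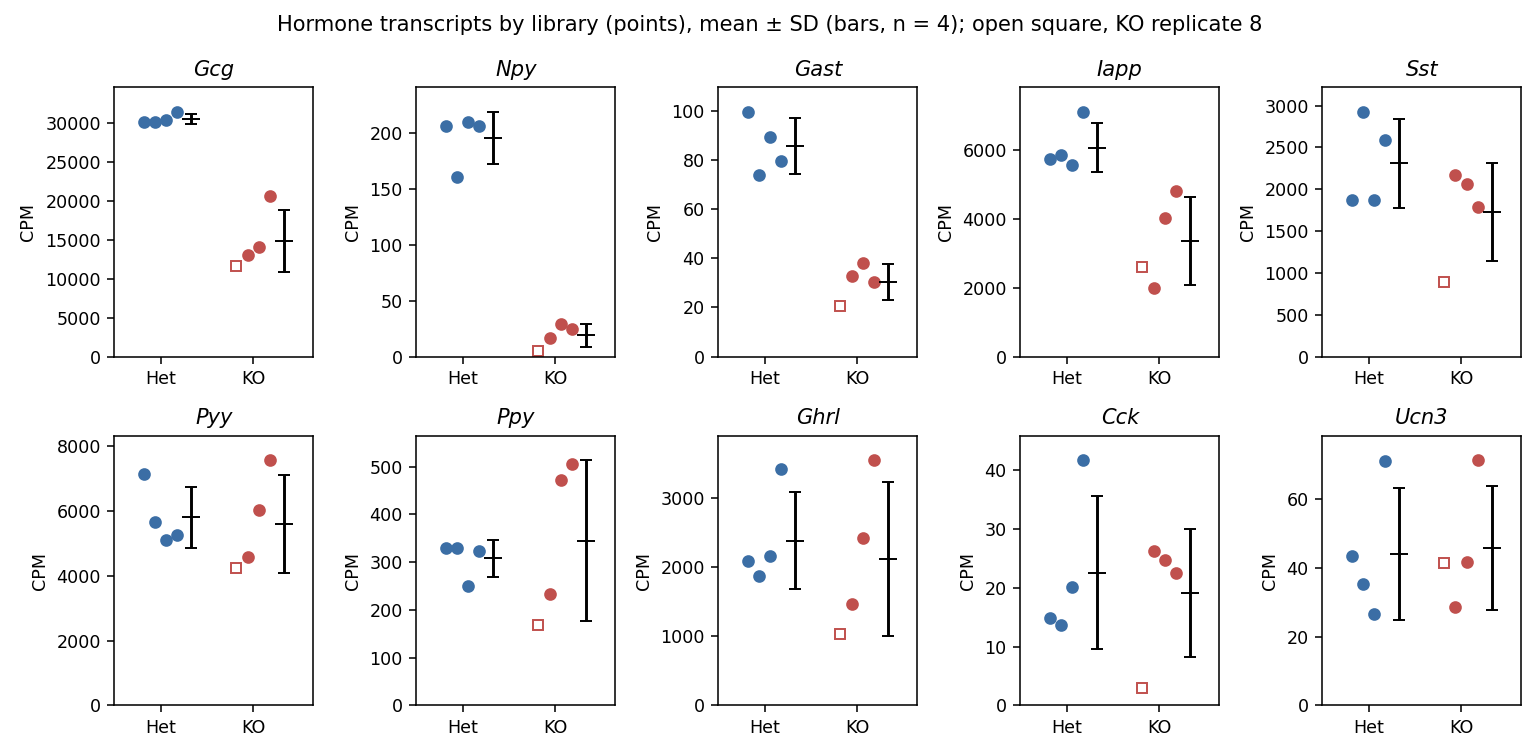
Level in CPM (vertical axis from 0) of the 10 hormone genes in each Het library (blue) and KO library (red), with the mean and SD of each group (n = 4) as black bars and KO replicate 8 as an open square. Gcg, Npy, Gast and Iapp show red points that all lie under the blue ones, and the other 6 panels overlap.

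Glucagon was the most abundant of these transcripts. Gcg stood at 11647, 13086, 14076 and 20672 CPM in KO replicates 8, 9, 17 and 24, and at 30174, 30242, 30438 and 31502 CPM in Het replicates 6, 7, 13 and 19. The Het libraries lay within a narrow band, with an SD of 2.02% of their mean, and every KO library lay below it, with an SD of 26.9%. KO replicate 24 came nearest to Het. Gcg fell by 1.04 on the log2 scale, or 2.06-fold (SE 0.21, adjusted p = 0.0440, edgeR). Without KO replicate 8 the log2 fold change was −0.95 (adjusted p = 0.0369). The call was lost without KO replicate 9, KO replicate 17 or any single Het library (adjusted p from 0.103 to 0.143), when scaled by total counts (0.0559), without a filter (0.0523) and under the Y-linked covariate (0.170, or 0.0676 without KO replicate 8). The log2 fold change lay between −1.26 and −0.95 in all 18 alternatives. In the authors' deposited table the log2 fold change of Gcg is −1.04, at an adjusted p of 5.58e-06.

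Neuropeptide Y changed most. Npy stood at 5.46, 16.4, 29.3 and 25.1 CPM in KO replicates 8, 9, 17 and 24, and at 205.7, 161, 209.6 and 206.3 CPM in Het replicates 6, 7, 13 and 19. The highest KO library lay far below the lowest Het library, at 75 to 389 counts per KO library against 2035 to 2663. Npy fell by 3.36 on the log2 scale, or 10.3-fold (SE 0.42, adjusted p = 0.00708, edgeR). It was the 11th largest fall among the 14116 genes tested. Without KO replicate 8, the lowest library, the log2 fold change was −3.06 (adjusted p = 2.42e-05). It kept its call in all 18 alternatives, with log2 fold changes between −3.66 and −2.90 and adjusted p of at most 0.0380.

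Gastrin, a low-level transcript here, also fell. Gast stood at 20.5, 32.8, 38.1 and 30.5 CPM in KO replicates 8, 9, 17 and 24, and at 99.6, 73.8, 89.3 and 79.7 CPM in Het replicates 6, 7, 13 and 19. The highest KO library, replicate 17, lay well below the lowest Het library, replicate 7. Gast fell by 1.49 on the log2 scale, or 2.81-fold (SE 0.21, adjusted p = 0.00983, edgeR), from counts of 786 to 1289 per Het library to 281 to 505 per KO library. Without KO replicate 8 the log2 fold change was −1.35 (adjusted p = 0.00219). The call was lost without Het replicate 13 (adjusted p = 0.0547) and with the Y-linked covariate on all 8 libraries (0.0567). In the authors' deposited table the log2 fold change of Gast is −1.49, at an adjusted p of 5.68e-06. Among markers of gut endocrine cells, where gastrin, secretin and gastric inhibitory peptide are also made, the summed level was 6.86 to 12.97 CPM in KO and 17.4 to 34.9 CPM in Het. The 5 markers (Sct, Gip, Nts, Insl5 and Tph1) held 3 genes that passed the filter. Their log2 fold changes were −2.47 (Sct), −1.38 (Gip) and 0.05 (Tph1). None of the 3 was called by edgeR, where 0.680% of all genes tested were called lower.

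Amylin did not pass the test. Iapp stood at 2598, 2000.3, 4049 and 4807 CPM in KO replicates 8, 9, 17 and 24, and at 5761, 5880.5, 5568 and 7126 CPM in Het replicates 6, 7, 13 and 19. All KO libraries were below all Het libraries, KO replicate 24 being the nearest. The log2 fold change was −0.85 (SE 0.26, 95% interval −1.43 to −0.28, adjusted p = 0.200, edgeR), or −0.76 without KO replicate 8 (adjusted p = 0.187). DESeq2 called it (adjusted p = 0.0213), as does the authors' deposited table (adjusted p = 0.0191), and the other 17 alternatives gave a log2 fold change between −1.09 and −0.67 with no call.

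Somatostatin, pancreatic polypeptide, peptide YY and ghrelin overlapped between genotypes. Sst stood at 890.3, 2176, 2068 and 1790.4 CPM in KO replicates 8, 9, 17 and 24, and at 1871, 2926, 1866 and 2585 CPM in Het replicates 6, 7, 13 and 19. KO replicate 8 was low, and KO replicates 9 and 17 lay inside the Het range. The log2 fold change of Sst was −0.42 (SE 0.27, 95% interval −1.02 to 0.19, adjusted p = 0.575), or −0.21 without KO replicate 8.

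Peptide YY was the second most abundant hormone transcript per length. Pyy stood at 4249, 4590.02, 6035 and 7565 CPM in KO replicates 8, 9, 17 and 24, and at 7148, 5675, 5112 and 5265 CPM in Het replicates 6, 7, 13 and 19. The highest library was a KO one, and KO replicates 8 and 9 were the lowest. For Pyy the log2 fold change was −0.05 (SE 0.21, 95% interval −0.52 to 0.42, adjusted p = 0.953), and 0.06 without KO replicate 8.

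Ppy, its relative, stood at 169, 233, 472.5 and 505 CPM in KO replicates 8, 9, 17 and 24, and at 330.04, 329, 249 and 324 CPM in Het replicates 6, 7, 13 and 19. The KO libraries fell on both sides of the Het range, with an SD of 48.9% of the mean against 12.7% in Het. Its log2 fold change was 0.16 (95% interval −0.53 to 0.85, adjusted p = 0.880), 0.38 without KO replicate 8 and below 0 without KO replicate 17 or 24 (−0.04 and −0.09).

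Ghrl, the ghrelin gene, stood at 1037, 1469, 2425 and 3545 CPM in KO replicates 8, 9, 17 and 24, and at 2084, 1866, 2163 and 3420.02 CPM in Het replicates 6, 7, 13 and 19. The KO SD was 52.6% of the mean, against 29.5% in Het. The log2 fold change was −0.17 (95% interval −0.95 to 0.61, adjusted p = 0.892), and 0.05 without KO replicate 8.

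Cholecystokinin and urocortin 3 were low in every library. Cck ranged from 2.99 to 26.2 CPM in KO and from 13.7 to 41.7 CPM in Het. KO replicate 8, at 41 counts, was the low one, and the other KO libraries (22.6 to 26.2 CPM) lay inside the Het range. The log2 fold change of Cck was −0.24 (95% interval −1.52 to 1.04, adjusted p = 0.910), and 0.11 without KO replicate 8. Ucn3 ranged from 28.6 to 71.3 CPM in KO and from 26.5 to 71.2 CPM in Het, nearly the same range, with a log2 fold change of 0.06 (95% interval −0.70 to 0.81, adjusted p = 0.968), or 0.09 without KO replicate 8. Of these 6 genes, Cck has the widest interval, and it is the one whose interval reaches the fall of Gcg. A missed threshold does not show that the genotypes were alike.

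**Figure D2:**
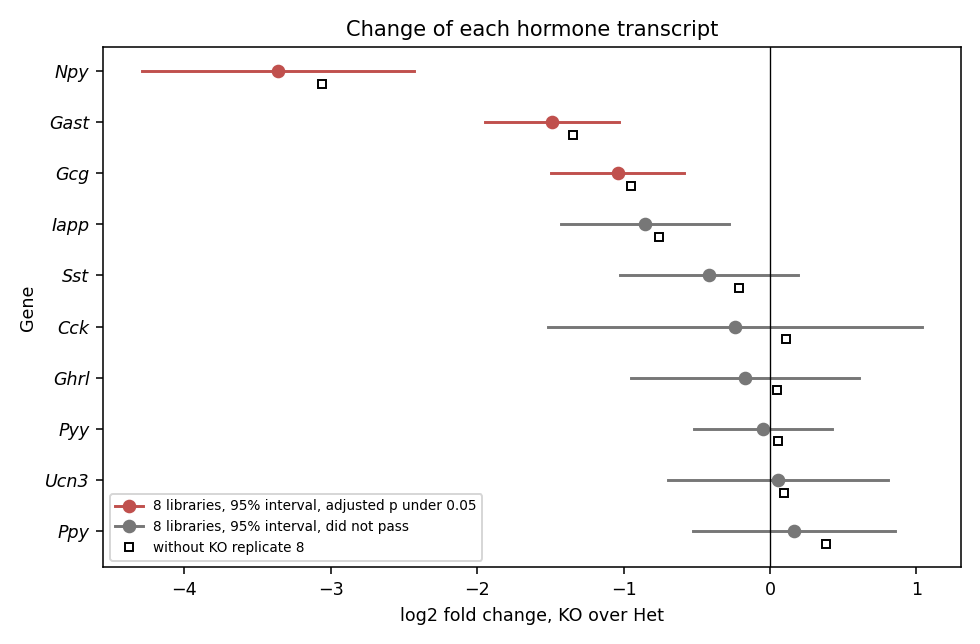
Log2 fold change, KO over Het (horizontal axis), of each hormone gene (vertical axis) with its 95% interval from the edgeR fit of 8 libraries, in red where the adjusted p was under 0.05 and in grey elsewhere, and without KO replicate 8 as open squares. Npy (−3.36), Gast (−1.49) and Gcg (−1.04) are the genes in red, and every estimate moves up when KO replicate 8 is left out.

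Levels of different genes were compared as CPM per kilobase of a coding transcript (GENCODE M21, the first-numbered transcript of each gene). In Het the order was Gcg (28115 ± 569 CPM per kilobase, SD, n = 4), Pyy (10450.4 ± 1675), Iapp (7251 ± 842), Ghrl (4523 ± 1333), Sst (3207 ± 736), Ppy (616 ± 78.4), Npy (346 ± 41.0), Gast (186 ± 24.5), Cck (32.7 ± 18.9) and Ucn3 (29.8 ± 13.1). Neighbours overlapped between libraries for Ghrl and Sst and for Cck and Ucn3, and all other neighbours were separate. In KO the order was Gcg (13667 ± 3671), Pyy (10108 ± 2731), Ghrl (4021 ± 2113), Iapp (4009 ± 1538), Sst (2401 ± 810), Ppy (690 ± 337), Gast (66.2 ± 16.0), Npy (33.7 ± 18.6), Ucn3 (31.0 ± 12.3) and Cck (27.7 ± 15.7). There Gcg overlapped Pyy, Ghrl overlapped Iapp, Iapp overlapped Sst, and the 4 lowest genes overlapped their neighbours. Npy went from the seventh place in Het to the eighth in KO, at a level near those of Ucn3 and Cck. Ghrl has a longer coding transcript in the annotation, and by that length it stands behind Sst in both genotypes. Cck also has a longer one, and by it Cck stands behind Ucn3 in Het (28.3 against 29.8 CPM per kilobase). Without KO replicate 8 the KO order is the same but for the last 2 places, where Cck (35.4) stands above Ucn3 (32.0 CPM per kilobase).

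The 10 genes together held 2.11%, 2.40%, 3.01% and 3.94% of all counts in KO replicates 8, 9, 17 and 24, and 4.61%, 4.75%, 4.54% and 4.82% in Het replicates 6, 7, 13 and 19. The KO mean was 2.86% ± 0.81 (SD, n = 4), or 3.11% without KO replicate 8, and the Het mean was 4.68% ± 0.13 (SD, n = 4). Every KO library lay below every Het library. Gcg made up 64.0% ± 1.85 of the hormone counts in Het and 53.2% ± 3.67 in KO (SD, n = 4 each), with no overlap. Pyy made up 12.1% ± 2.001 in Het, with Het replicate 6 highest at 14.98%, and 20.0% ± 0.70 in KO, where the 4 libraries lay between 19.4% and 20.6%. Iapp held 12.7% ± 0.94 in Het and 11.8% ± 2.32 in KO, and Ghrl 4.95% ± 1.24 and 7.15% ± 1.87, both with overlap. Sst held 4.83% ± 1.06 in Het and 6.29% ± 2.30 in KO, also with overlap. Ppy held 0.643% ± 0.07 in Het and 1.18% ± 0.35 in KO, with each KO library above each Het library. The KO shares without KO replicate 8 were 52.1% for Gcg, 19.8% for Pyy, 11.5% for Iapp, 7.86% for Ghrl, 6.95% for Sst and 1.30% for Ppy. Since shares sum to 100%, the lower share of Gcg raises those of the others, and no test was made on them.

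**Figure D3:**
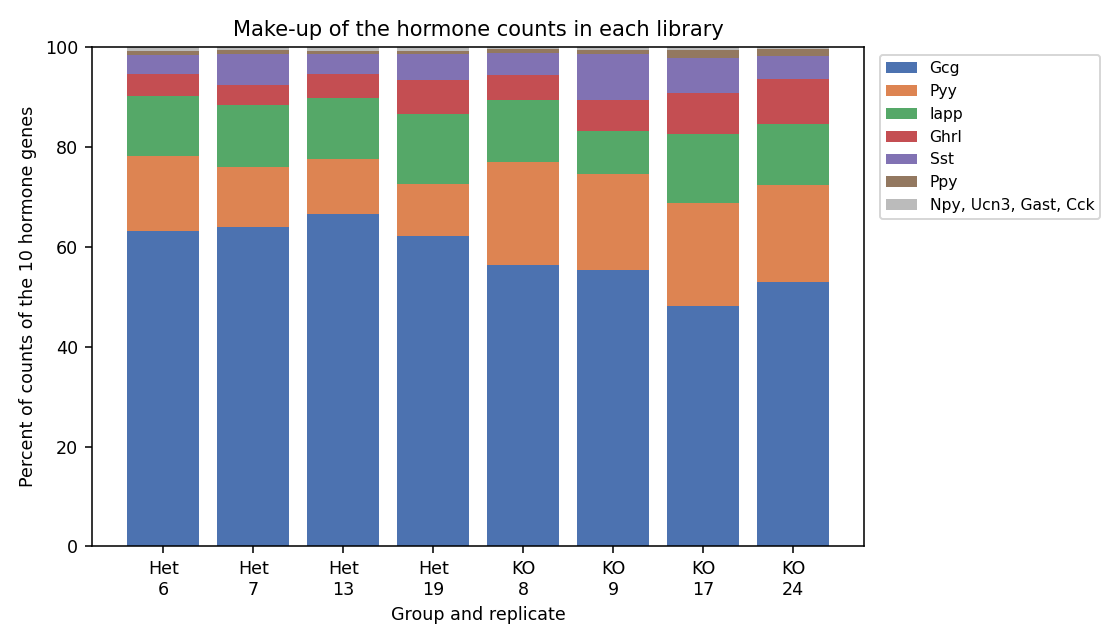
Share of each gene in the summed counts of the 10 hormone genes (vertical axis, percent, from 0 to 100) in each library (horizontal axis, group and replicate number). The Gcg segment takes 62.2% to 66.5% in the Het bars and 48.1% to 56.4% in the KO bars, and the Pyy segment 10.4% to 14.98% and 19.4% to 20.6%.

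The ratio of a pair of transcripts within a library does not depend on how the library was scaled. Ratios were compared for 8 pairs, chosen with earlier results known, by exact permutation tests over 70 assignments, two-sided, whose smallest p is 0.0286. The log2 ratio of Gcg to Pyy was 1.45, 1.51, 1.22 and 1.45 in KO replicates 8, 9, 17 and 24, and 2.08, 2.41, 2.57 and 2.58 in Het replicates 6, 7, 13 and 19. KO replicate 8 lay with the other KO libraries in this ratio, and the genotypes did not overlap. The difference was −1.002, a 2.003-fold lower ratio (exact permutation p = 0.0286, adjusted over 8 pairs 0.0457). The ratio of Gcg to Ppy differed by −1.10, from 6.64 ± 0.20 in Het to 5.54 ± 0.53 in KO (SD, n = 4 each; exact permutation p = 0.0286, adjusted 0.0457). Gcg alone already separated the genotypes, and Pyy and Ppy were not called. Both of these Gcg ratios therefore largely restate the fall of Gcg and are not added support for it. For Gcg to Sst the difference was −0.61 and for Gcg to Ghrl −0.79, with overlapping libraries (exact permutation p = 0.143 and 0.0571, adjusted 0.163 and 0.0762).

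Within the neuropeptide Y family the genes moved apart. The log2 ratio of Npy to Pyy was −9.58, −8.12, −7.68 and −8.23 in KO replicates 8, 9, 17 and 24, and between −5.14 and −4.61 in Het. It was 11.5-fold lower in KO (difference −3.52, exact permutation p = 0.0286, adjusted 0.0457). The ratio of Npy to Ppy was 12.3-fold lower (difference −3.62, exact permutation p = 0.0286, adjusted 0.0457). Npy alone already separated the genotypes widely, so both Npy ratios largely restate its fall and are not added support for it. Iapp was also set against Ins2, the insulin gene that beta cells express beside it. The log2 ratio of Iapp to Ins2 was −0.30, −0.64, −0.34 and −0.36 in KO replicates 8, 9, 17 and 24, and −1.25, −1.21, −0.91 and −1.23 in Het replicates 6, 7, 13 and 19. It was higher in each KO library than in any Het library (difference 0.74, exact permutation p = 0.0286, adjusted 0.0457). Ins2 and Iapp each separated the genotypes alone, with log2 fold changes of −1.63 and −0.85. This ratio therefore largely restates that Ins2 fell further than Iapp, and is not added support for either fall. The ratio of Iapp to Sst did not differ beyond the spread (difference −0.46, exact permutation p = 0.229, adjusted 0.229). The differences of these 5 pairs without KO replicate 8 were −1.02 (Gcg to Pyy), −1.29 (Gcg to Ppy), −3.13 (Npy to Pyy), −3.40 (Npy to Ppy) and 0.70 (Iapp to Ins2). Without any single Het library their adjusted p was between 0.0571 and 0.0914. With so few libraries the permutation p has a floor, and the adjusted p of a pair depends on the other pairs. These values therefore do not show that a ratio rests on any single Het library.

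**Figure D4:**
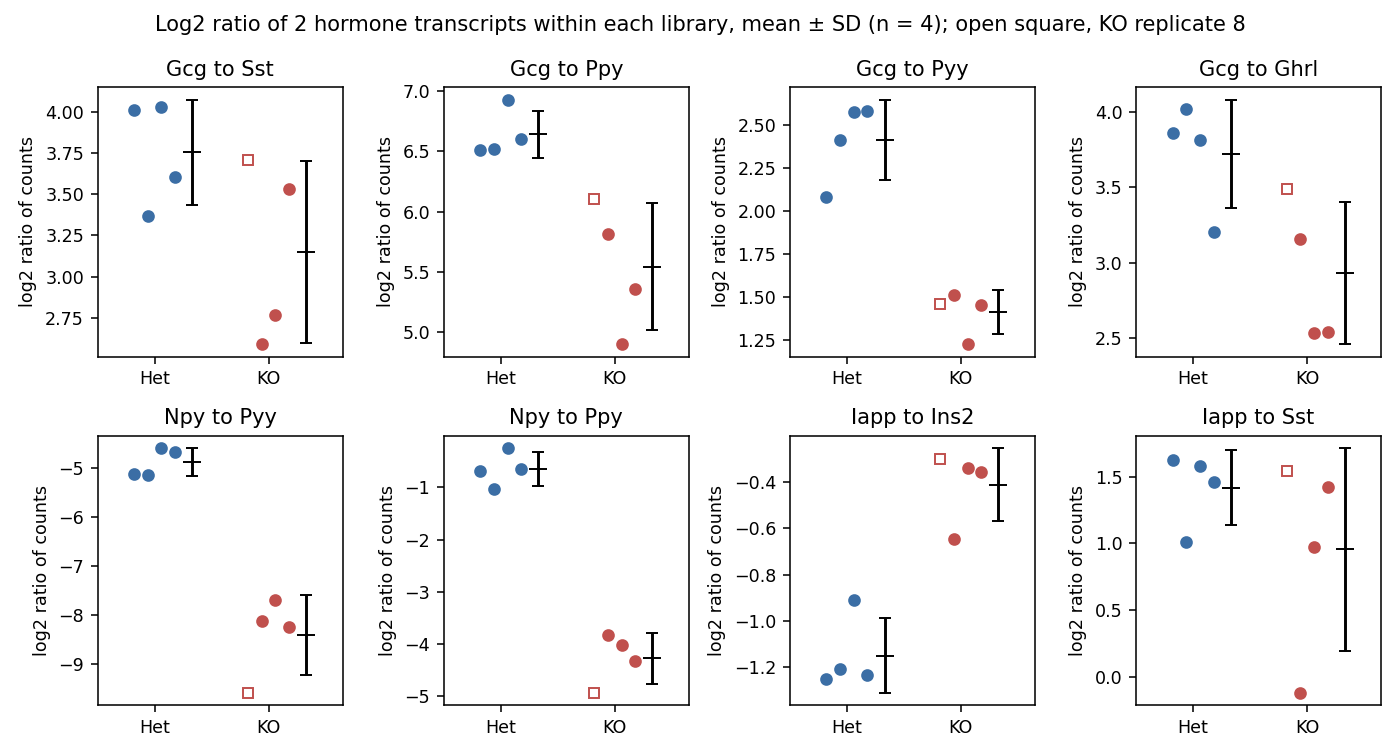
Log2 ratio of the counts of a pair of hormone genes within each library (vertical axis, not starting at 0), for 8 pairs, with Het in blue, KO in red, KO replicate 8 as an open square, and mean ± SD (n = 4) as black bars. Gcg to Ppy, Gcg to Pyy, Npy to Pyy and Npy to Ppy show no overlap with KO lower, Iapp to Ins2 shows no overlap with KO higher, and the other 3 pairs overlap.

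Genes that process or sense these hormones were read from the same fit. Of 9 prohormone processing genes 1 fell, Cpe, which encodes carboxypeptidase E, the enzyme that trims cut prohormones (log2 fold change −1.60, SE 0.21, adjusted p = 0.00795, edgeR). The share of all genes called lower was 0.680%. Cpe stood at 705 to 1004 CPM in KO and 1899 to 3268 CPM in Het. The other 8 did not pass by edgeR. DESeq2 called 2, Cpe and Pcsk2, the convertase that cuts proglucagon to glucagon, where it called 3.68% of all genes. Pcsk2 stood at 577 to 1164 CPM in KO and 1400 to 1651 CPM in Het, without overlap (−0.71, adjusted p = 0.172 by edgeR and 0.0227 by DESeq2). Also among the 8 are Pcsk1 (0.05, adjusted p = 0.928), Pam, which amidates Npy, Pyy, Ppy, amylin and gastrin (−0.23, adjusted p = 0.621), and Mboat4, which acylates ghrelin (−0.02, adjusted p = 0.987). Cpe kept its call in all 18 alternatives.

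Of 22 receptor gene symbols searched, which are not all separate genes, 21 had a row and 12 passed the filter. Of these 1 fell and none rose by edgeR, against 0.680% and 0.340% of all genes. A p under 0.05 before adjustment was found for 5 (12.2% of all genes), and DESeq2 called 4 (3.68% of all genes), Crhr2, Sstr3 and Ghsr lower and Glp1r higher. The gene called was Crhr2, the receptor for Ucn3, at 2.11, 1.91, 4.15 and 3.32 CPM in KO replicates 8, 9, 17 and 24, and at 12.1 to 20.4 CPM in Het. No KO library came near the lowest Het library. Crhr2 fell by 2.37 on the log2 scale (SE 0.37, adjusted p = 0.0195), or −2.25 without KO replicate 8 (adjusted p = 0.0114), while its ligand gene Ucn3 is the one with a log2 fold change of 0.06. The call was lost without KO replicate 9 or 24 or any single Het library (adjusted p up to 0.0707) and with the Y-linked covariate (0.0832). The somatostatin receptor gene Sstr3 (−1.28, adjusted p = 0.0865) was called without KO replicate 8 (−1.08, adjusted p = 0.0394). The ghrelin receptor gene Ghsr (−1.97, adjusted p = 0.181), the GLP-1 receptor gene Glp1r (0.89, adjusted p = 0.198) and the glucagon receptor gene Gcgr (−1.18, adjusted p = 0.369) did not pass by edgeR. The median of the list was −0.46.

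Of 16 transcription factors of hormone cells 15 passed the filter and 1 fell, the alpha-cell factor gene Irx1 (−1.40, SE 0.28, adjusted p = 0.0440, edgeR). Its levels were 9.62 to 16.2 CPM in KO and 27.5 to 53.1 CPM in Het. The share of all genes called lower was 0.680%. DESeq2 called 4, all lower (Irx1, Irx2, Isl1 and Mafa), against 3.68% of all genes in either direction. The median went from −0.29 to 0.01 once KO replicate 8 was left out, against 0.03 and −0.0048 over all genes tested. All 15 were at their lowest in that library, as were 20.9% of all genes. Irx1 was called without that library (−1.28, adjusted p = 0.0321), and Irx2 as well (−0.92, adjusted p = 0.0130). The call of Irx1 was lost without any other single library (adjusted p up to 0.134), under limma-voom, when scaled by total counts, and under the Y-linked covariate (0.204). Hhex, a factor of delta cells (0.14, adjusted p = 0.870), did not pass.

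Of 38 other peptide hormone and neuropeptide genes 19 passed the filter, and 2 fell, Ins1 (−3.64, adjusted p = 0.00795) and Ins2 (−1.63, adjusted p = 0.0195). The call of Ins2 was lost without KO replicate 9 or 17 or any single Het library (adjusted p from 0.05 to 0.0771) and with the Y-linked covariate (0.0973). The share of all genes called lower was 0.680%. None rose by edgeR. DESeq2 called 3, Ins1, Ins2 and Sct (3.68% of all genes), and 5 had a p under 0.05 before adjustment (12.2% of all genes). The secretin gene Sct (−2.47, adjusted p = 0.290), Gip (−1.38, adjusted p = 0.230), the granule protein genes Chga (−0.32), Chgb (−0.61) and Scg2 (−0.12), and Penk (1.94, adjusted p = 0.434) did not pass by edgeR. Without KO replicate 8 Gip was called lower (−1.85, adjusted p = 0.0400). Penk then had a log2 fold change of 0.03. The medians of the processing list (−0.23) and of this list (−0.32) compare with 0.03 over all genes tested.

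**Figure D5:**
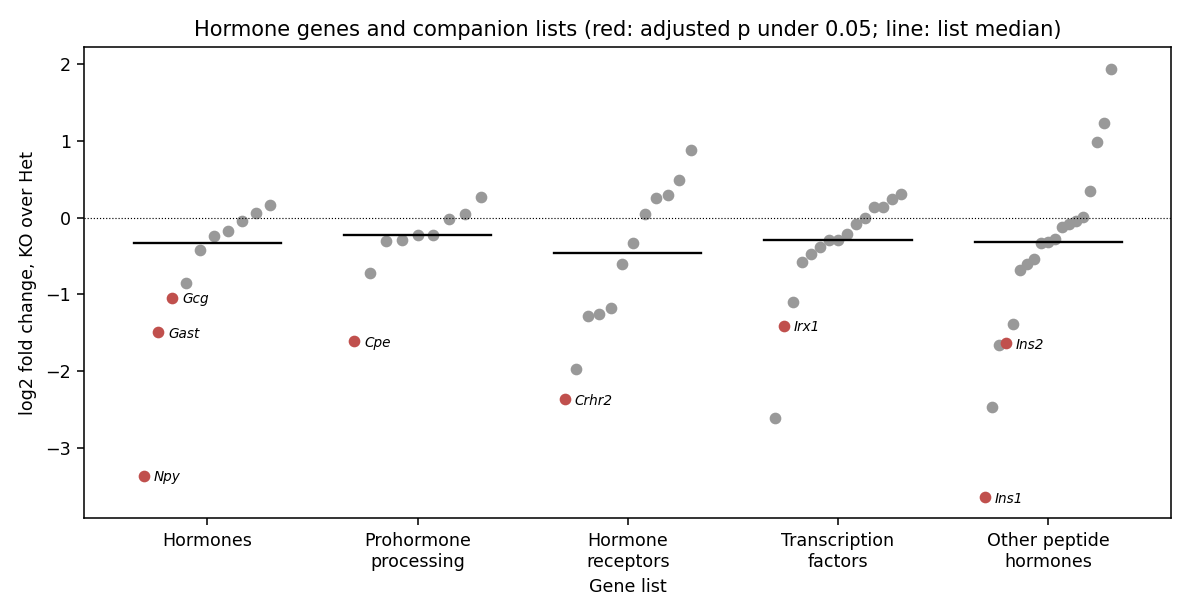
Log2 fold change, KO over Het (vertical axis), of each tested gene in the hormone list and in 4 companion lists (horizontal axis), with called genes in red and named, other genes in grey and the list's median as a black line. The medians lie between −0.46 and −0.23, and no gene above 0 is called.

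Genes with a pattern like that of a hormone gene were sought by the smallest root mean square difference of log2 CPM over the 8 libraries, each gene centred on its own mean, among genes of at least 8 CPM. Both genotypes and all libraries enter this measure, so it is a description and was not tested. Closest to Npy was Neurod1 itself, at 0.31 log2 units, and Ins1 (0.52) was also among the closest. Closest to Gcg was Slitrk6, a membrane protein gene of the Slitrk family, at 0.10 log2 units, at 229 ± 2.77 CPM in Het and 113 ± 18.7 CPM in KO (SD, n = 4 each). The kinase gene Pak3 (0.16) and Nmt2 (0.18) followed. Closest to Gast were Tmem206 (0.16), Creld2 (0.20), a gene of the endoplasmic reticulum, and Lrrn1 (0.20), and closest to Iapp were the calcium-binding protein gene Scgn (0.16), Gpd1 (0.17) and Rab37 (0.18). Closest to Pyy was the granule protein gene Scg2 (0.09), then Fkbp4 and Fam134c, and closest to Sst were the fatty acid receptor gene Ffar2 (0.13), Wdr63 and Igsf11. For Ppy these were Vil1, Nr1h2 and Tmod1, for Ghrl Fam96b, Rps4y2 and Ppp1r1a, for Cck Doc2b and Pcsk4, and for Ucn3 Rab4b, Hpse and Srf, at 0.16 to 0.31 log2 units.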

How the data were processed

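The members and gene lists were chosen with earlier results of these data known. Total RNA (2.315 ng, RNA integrity number above 8) was amplified to cDNA with a NuGEN Ovation V2 kit and sequenced as about 30 M single-end reads of 100 bp per library, per the labels' protocols. The authors deposited whole-number counts of reads per gene symbol, not normalized. The submitters' processing notes name bcl2fastq 1.8.4, TopHat2 2.1.0, Cufflinks 2.0.2, DESeq and mm9. Which tool counted reads, and on which annotation, is not given in the sources used here, and copies made by amplification are not told apart. The authors' deposited comparison holds, per the file headers, group means of normalized counts (a signal per group), their ratio as a fold change, its log2, and p-values with adjusted p-values.

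Libraries were scaled by TMM, and filterByExpr (minimum count 10, minimum total 15) kept 14116 of 23284 genes. KO was compared with Het by the quasi-likelihood F test of edgeR 4.0.16 (R 4.3.3), two-sided, without covariates, with Benjamini-Hochberg adjustment and a threshold of 0.05. SE is the log2 fold change over the square root of F. DESeq2 1.42.0 and limma 3.58.1 were alternatives. On simulated counts of 13890 genes, 68.0% of 4-fold falls and 34.0% of 2-fold falls were recovered. Ratios used counts plus 1, figures matplotlib, and promoters the RefSeq starts of GRCm38.p6 (10 of 10 genes matched).

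Named were Neurod1, the hormones, Ins1, Ins2, up to 5 called genes of each companion list, or the 2 with the smallest p, and the 3 most similar genes by pattern (mean of at least 8 CPM, unnamed gene models left out). Other list members are examples chosen after their values were seen. Some items these rules name are not reported here. No 2 libraries held identical values, and the most alike still differed beyond sampling noise (chi-square over degrees of freedom 16.1). Alternatives were other scalings and filters, DESeq2, limma-voom, a mesenchyme covariate and each library left out, with Y-linked covariates added after seeing the data.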

Additional observations from a re-analysis of the deposited data

Results flagged for a closer look

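Among 126 groups of 4 values checked, 8 had 1 library far from the other 3 by Dixon's test at its 95% critical value (0.829). Chance alone gives about 5%, and the count lies near that share. Levels, shares and ratios of the same genes were checked, so the groups also overlap. A library listed here is therefore not shown to be an outlier. Ppy in Het was low in replicate 13, at 249 CPM against 324 to 330.04 CPM. Npy in Het was low in replicate 7, at 161 CPM against 205.7 to 209.6 CPM, still above every KO library. Cck in KO was low in replicate 8, at 2.99 CPM against 22.6 to 26.2 CPM. The log2 ratio of Iapp to Ins2 was low in KO replicate 9 (−0.64, against −0.36 to −0.30) and high in Het replicate 13 (−0.91, against −1.25 to −1.21). Among the other named genes, Neurod1 in Het was high in replicate 19 (210.5 CPM, against 133 to 141 CPM). Ins1 in Het was also high in replicate 19 (24136 CPM, against 8350 to 10726 CPM), and Lrrn1 in KO was low in replicate 8 (38.0 CPM, against 71.7 to 76.9 CPM).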

How the results depend on the processing

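The 3 hormone calls rested unequally on the settings, and Npy alone was called in all 18 alternatives. Gast was called in 16 and Gcg in 8, both negative throughout. The number of hormone genes called went from 1 to 3 with a library left out and was 1 with the Y-linked covariate. The number of all genes called, 144 in the fit of 8 libraries, was 520 by DESeq2, 542 with the mesenchyme covariate and 28 with the Y-linked covariate, and ran from 29 to 285 with a library left out. With a library left out, the ratio difference ran from −1.29 to −0.89 for Gcg to Ppy and from −1.11 to −0.94 for Gcg to Pyy. It ran from −3.76 to −3.13 for Npy to Pyy and from −3.77 to −3.40 for Npy to Ppy. For Iapp to Ins2 it ran from 0.70 to 0.82. Without any single Het library none of the 5 passed. The floor of the permutation p and the adjustment over pairs bear on that loss, so it does not show dependence on any single library. Without Rn45s and mitochondrial genes the hormone share was 4.82% of counts in Het and 2.99% in KO. The cause of these changes was not tested. No paired analysis was possible because the genotypes share no replicate number. Cck had only 41 counts in KO replicate 8, although that library, at 13.43 M counts, was the deepest of the KO libraries.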
